A study of Mus musculus with 6 samples.

Results

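The BCL2 family was described here by 10 genes, Bcl2, Bcl2l1, Mcl1, Bax, Bak1, Bcl2l11, Bbc3, Pmaip1, Bid and Bad, in 1G11 mouse microvascular endothelial cells with and without overexpression of extracellular superoxide dismutase (SOD3). Every non-control spot whose annotation names 1 of these genes was taken, which gave 14 probes, each printed as 1 spot, of the 55681 probes (22526 named genes) on the array. The 1G11-mock cells do not overexpress SOD3 and the 1G11-SOD3 cells do. Both carry the strain label C57BL/6NCrLBR, and both had spent 6 h in conditioned medium of N202.1A, a mouse mammary cancer line, when total RNA was taken, so that neither group stands for cells in fresh medium. RNA from 3 biological replicates per cell line was hybridized to 6 single-color arrays of 60-base probes on 1 slide. Whether each line is 1 clone or a pool is not given in the sources used here, and each genotype is represented by 1 line, so that a difference between the lines cannot be told apart from a difference caused by SOD3.

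BCL2 family proteins set the threshold for the mitochondrial pathway of apoptosis. The anti-apoptotic members (here Bcl2, Bcl2l1 and Mcl1) hold the pore-forming effectors Bax and Bak1 in check at the outer mitochondrial membrane, and the BH3-only members (here Bcl2l11, Bbc3, Pmaip1, Bid and Bad) bind the anti-apoptotic proteins or activate the effectors when a cell is stressed. In endothelial cells, anti-apoptotic members are known targets of survival signals such as those of vascular endothelial growth factor and of NF-κB, the pathway that the study examined. The activity of the family is set largely by protein binding, cleavage, phosphorylation and turnover, which an mRNA array does not measure.

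3 probes that lie in coding sequence are shown, because they mark which part of a transcript was read. The Bcl2 probe (A_51_P380013) covers codons at the end of the BH1 domain, 1 of the conserved regions that form the binding groove, and these codons are in capitals. The dimmer Bcl2l1 probe (A_52_P510877) lies in the open reading frame between BH1 and BH2. A Bcl2l11 probe (A_51_P484880) begins in the BH3 domain, the helix by which this protein binds the groove, and codons of that domain are in capitals. The array annotation places them at chr1:108608970-108609029 (minus strand), chr2:152655185-152655244 (minus strand) and chr2:127972893-127983988 (plus strand), the last across a splice junction. The genome build of these positions is not given in the files.
Bcl2: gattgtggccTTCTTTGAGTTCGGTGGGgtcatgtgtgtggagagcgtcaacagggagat
Bcl2l1: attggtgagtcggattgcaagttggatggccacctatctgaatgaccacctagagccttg
Bcl2l11: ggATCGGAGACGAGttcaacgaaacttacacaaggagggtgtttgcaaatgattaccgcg

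Values below are log2 intensities after background correction and quantile normalization, listed for replicates 1, 2 and 3, and differences are 1G11-SOD3 minus 1G11-mock. A probe was called at more than 2-fold and a Benjamini-Hochberg adjusted p under 0.05 by limma over all probes. With 3 arrays per line, the number of arrays limits the precision. The scanner software marked 34.2% to 43.8% of the spots of an array as well above background and none as saturated. 12 of the 14 probes were well above background on all 6 arrays. Slide row 1 held the 1G11-SOD3 arrays and slide row 2 the 1G11-mock arrays, and line and slide row cannot be told apart. In the middle of the array (the dashed box of the map by place), copies of a probe differed from its copies elsewhere by a median of -0.83, -1.27 and -2.62 on the 1G11-mock arrays, where the 1G11-SOD3 arrays gave 0.22, -0.22 and 0.13. 1 member, Bbc3, lies there and has its own paragraph, though the counts and medians over the 14 probes and 10 genes include it. The probe of Sod3 itself, also in the middle, read 13.61, 12.66 and 9.86 in 1G11-mock and 16.37, 16.30 and 16.26 in 1G11-SOD3 cells, higher by 4.27 ± 0.70 (SE, adjusted p = 0.00786 by limma) and by 2.75 (adjusted p = 0.0174) after adjustment for place.

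**Figure D1:**
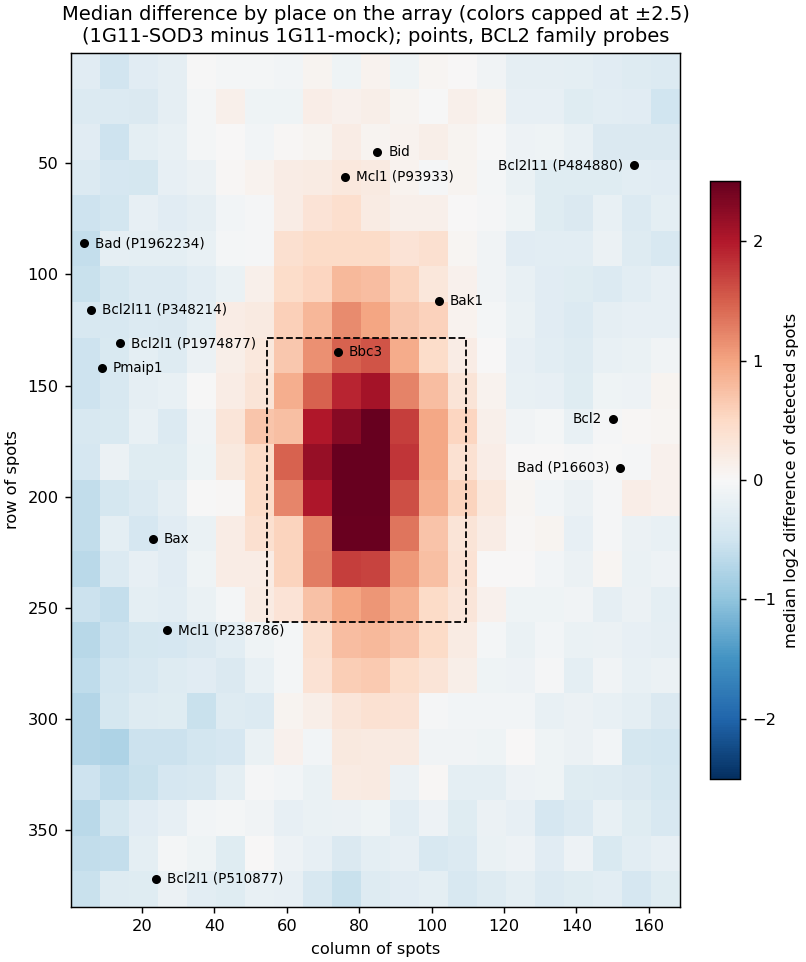
Map of the median log2 difference (1G11-SOD3 minus 1G11-mock) of detected spots (well above background on 3 or more arrays), in blocks over the rows and columns of the array, with the 14 BCL2 family probes as points and the middle of the array as a dashed box. Bbc3 is the single member inside the box, and 9 of the 14 probes lie where the nearest 100 detected spots read lower in 1G11-SOD3, as do 63.3% of all probes.

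Across the family, 10 of the 14 probes read lower in 1G11-SOD3 and 4 higher (1 of these, the second Bcl2l11 probe, well above background on no array), with a median difference of -0.51 against -0.03 over all probes. Where the processed signal of the scanner was scaled to its 75th percentile, this count depended on the reference, since 4 of 14 lay below the median of all probes (-0.52) and 9 of 14 below the median of detected probes (0.04), those that every array of a line read well above background. 1 probe was called, the brighter of the 2 for Bcl2l1, and it was lower. Over all probes 2.93% were called, 1.06% lower and 1.87% higher. The lines did not overlap for 8 of the 14 probes, 7 of them lower in 1G11-SOD3 and 1 higher, where 20.6% of all probes did not, 10.3% in each direction. Of the probes that every array of a line read well above background, 17.4% were lower and 16.1% higher without overlap. Pmaip1, 1 of the 7 lower probes, and the second Bcl2l11 probe are not among these. By the brightest probe of each gene, 8 of 10 genes read lower and the median was -0.68, or -0.39 after subtracting the shift of the spots around each probe. As for place, the nearest 100 detected spots of the 14 probes differed by a median of -0.24 (range -0.51 to 1.31). They differed by less than 0 for 9 of the 14, and for 63.3% of all probes. The position adjustment subtracted local deviations of this kind, taken before quantile normalization, so that they differ somewhat from the values just given. After it, the median over the 14 probes was -0.34 against 0.06 for all probes, and 10 were lower. Without overlap, 6 lay below and 2 above, where 11.3% of all probes lay below and 16.5% above after the same adjustment. 1 of the 2 above was again the second Bcl2l11 probe. What part of the members' difference comes from place was not tested beyond this adjustment.

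**Figure D2:**
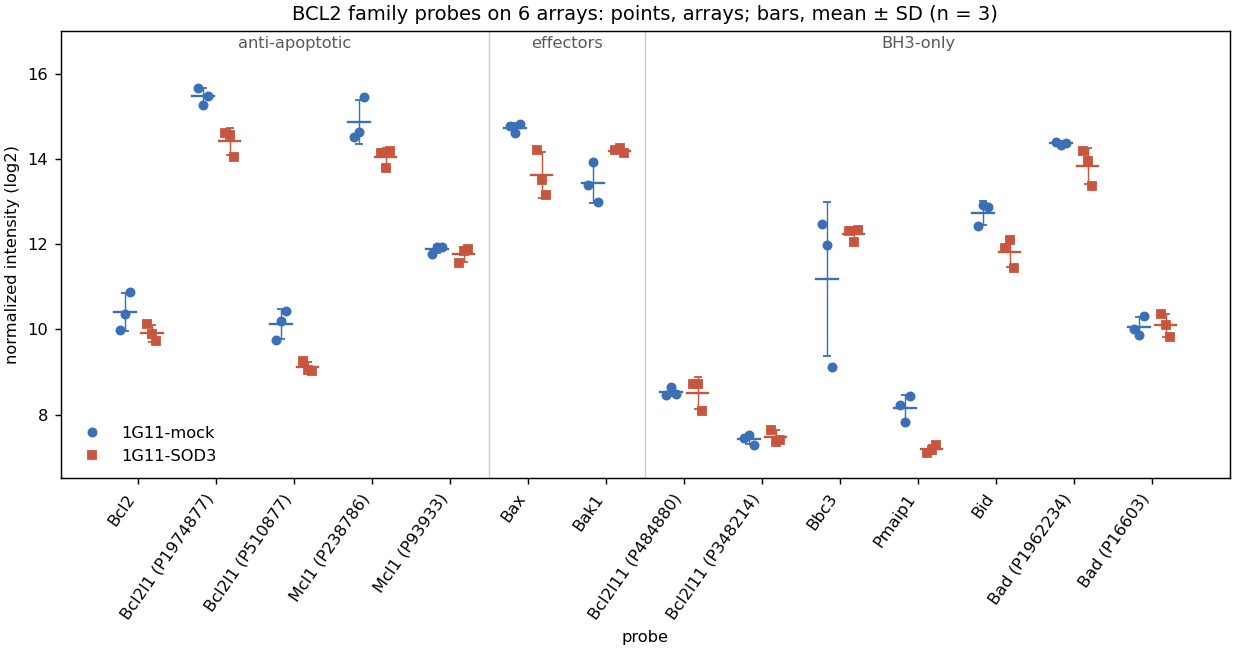
Normalized log2 intensity of the 14 BCL2 family probes on each of the 3 1G11-mock (circles) and 3 1G11-SOD3 arrays (squares), with bars for mean ± SD. The lines do not overlap for both Bcl2l1 probes, the brighter Mcl1 probe, Bax, Pmaip1, Bid and the brighter Bad probe (1G11-SOD3 lower) and for Bak1 (1G11-SOD3 higher). Heights are not comparable between probes.

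Of the anti-apoptotic members, Bcl2l1 read lower on both of its probes. Bcl2l1 encodes BCL-XL, which holds BAX and BAK1 inactive. Its brighter probe (A_55_P1974877, at the 3′ end of the transcript) read 15.66, 15.27 and 15.49 in 1G11-mock and 14.62, 14.57 and 14.05 in 1G11-SOD3 cells. All 1G11-SOD3 arrays were lower, and the difference was -1.06 ± 0.24 (SE, 2.09-fold, adjusted p = 0.0398 by limma). The coding probe printed above, which lies far from it on the array, read 9.74, 10.20 and 10.43 against 9.27, 9.04 and 9.03, again without overlap. Its difference of -1.01 ± 0.24 was 2.02-fold and missed the threshold (adjusted p = 0.0502 by limma). The 2 probes differed from each other in this by 0.05, within their error (exact permutation test over arrays, two-sided p = 0.8, the smallest possible being 0.1).

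The Bcl2l1 call was narrow. Leaving out any 1 of the 6 arrays left the brighter probe at differences of -1.17 to -0.88 with adjusted p of 0.0827 to 0.142 by limma, so that it was not called. Without 1G11-mock replicate 1, the coding probe was called in its place (-1.21, adjusted p = 0.0280). The spots around both probes also read lower in 1G11-SOD3, by a median difference of -0.35 and -0.19. After position adjustment the probes stood at -0.73 and -0.75 (adjusted p = 0.0919 and 0.0927 by limma), still without overlap between the lines and neither called. Both differences stayed negative under the 22 alternatives. With the processed signal of the scanner, however, the median of all probes was -0.52, and against it the brighter probe stood at 0.05 (and at -0.51 against the median of detected probes).

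Mcl1, which encodes a short-lived BCL2 relative that restrains BAK1, had 2 probes that differed. The brighter one (A_51_P238786) read 14.51, 14.64 and 15.45 in 1G11-mock and 14.15, 13.80 and 14.18 in 1G11-SOD3 cells. No array overlapped, and the difference was -0.83 ± 0.28 (SE, adjusted p = 0.178 by limma). The other (A_52_P93933) read 11.78, 11.94 and 11.94 against 11.57, 11.83 and 11.88, with overlap and a difference of -0.13 ± 0.22 (95% interval -0.60 to 0.35). The spots around the first read lower in 1G11-SOD3 (-0.41) and those around the second higher (0.27). After position adjustment the 2 probes stood closer together, at -0.48 and -0.36, neither called (adjusted p = 0.260 and 0.398 by limma).

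Bcl2, the founding anti-apoptotic gene of the family, was read by the BH1 probe printed above, which was designed on transcript variant 2. It read 9.98, 10.35 and 10.88 in 1G11-mock and 10.12, 9.89 and 9.72 in 1G11-SOD3 cells. The lines overlapped, since 1G11-mock replicate 1 lay below 1G11-SOD3 replicate 1. The difference of -0.49 (95% interval -1.08 to 0.09) was not called (adjusted p = 0.445 by limma), and position adjustment left it at -0.32.

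The 2 effectors read in opposite directions. Bax, whose protein moves from the cytosol to mitochondria and forms pores there, read 14.77, 14.60 and 14.82 in 1G11-mock and 14.21, 13.50 and 13.16 in 1G11-SOD3 cells. All 1G11-SOD3 arrays were lower, with a wider spread (SD 0.53, n = 3) than the 1G11-mock arrays (SD 0.12, n = 3). The difference, -1.11 ± 0.28, was over 2-fold (2.16) and missed the threshold (adjusted p = 0.0602 by limma). Without 1G11-SOD3 replicate 1 it was -1.40 and called (adjusted p = 0.0290 by limma). Leaving out any other single array gave -1.17 to -0.88 with adjusted p of 0.123 to 0.199 by limma and no call. With the processed signal of the scanner it stood at -0.18 against the median of all probes and at -0.74 against that of detected probes. The spots around it differed by -0.34, and after position adjustment it stood at -0.84 (adjusted p = 0.0845), without overlap.

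Bak1, the effector that resides in the outer mitochondrial membrane, was the single probe with every 1G11-SOD3 array higher. It read 13.40, 13.93 and 12.99 in 1G11-mock and 14.22, 14.25 and 14.13 in 1G11-SOD3 cells, a difference of 0.76 ± 0.26 (SE, adjusted p = 0.189 by limma). Its spot lies just above the middle of the array, where neighboring spots also read higher in 1G11-SOD3 (0.31). After position adjustment it stood at 0.40 (adjusted p = 0.326) and the lines still did not overlap. Under the 22 alternatives it was not called, at differences of 0.29 to 1.01.

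Among the BH3-only members, Bid was the one called after position adjustment. Bid is cleaved by caspase-8 and links death receptors to mitochondria. It read 12.42, 12.92 and 12.87 in 1G11-mock and 11.90, 12.11 and 11.43 in 1G11-SOD3 cells, without overlap. The difference was -0.92 ± 0.26 (SE, 1.89-fold, adjusted p = 0.0913 by limma). Unlike the other lower probes without overlap, it lies where neighboring spots read slightly higher in 1G11-SOD3 (0.17). After position adjustment it was -1.09 (95% interval -1.63 to -0.56, adjusted p = 0.0351 by limma) and was the single member called, where 3.70% of all probes were called, 2.63% lower and 1.08% higher (1.95% lower among probes that every array of a line read well above background). A smooth surface over rows and columns in place of the local medians gave -1.01 (adjusted p = 0.0452), and the difference stayed negative under the 22 alternatives, at -0.55 against the median of all probes with the processed signal. Bid was called under no alternative without adjustment for place. Leaving out any 1 array, without this adjustment, gave -1.08 to -0.73 with adjusted p of 0.0703 to 0.256 by limma.

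Pmaip1, which encodes NOXA, an antagonist of MCL1, was dim. It read 8.23, 7.83 and 8.43 in 1G11-mock and 7.09, 7.17 and 7.30 in 1G11-SOD3 cells, and was well above background on 1 of the 3 1G11-mock arrays and on no 1G11-SOD3 array. With means of 8.16 and 7.18 (adjusted p = 0.0491 by limma), it lay close to the background limit in 1G11-mock and under it in 1G11-SOD3 cells, and no fold or bound is given. It was not called, the measured difference of -0.98 being under the threshold of size. This difference moved with the background correction and scaling, to -2.41 with the processed signal (adjusted p = 0.0110) and -1.33 with scaling to the 75th percentile (adjusted p = 0.00767), where it was called, and to -0.58 with no background correction (adjusted p = 0.0875 by limma). The spots around it, at the left edge, differed by -0.43, and after position adjustment the difference was -0.46 (adjusted p = 0.259).

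Bad, a BH3-only member inactivated by phosphorylation downstream of AKT, was read by 2 probes that differed. The brighter, at the 3′ end (A_55_P1962234), read 14.41, 14.32 and 14.37 in 1G11-mock and 14.20, 13.96 and 13.37 in 1G11-SOD3 cells. It did not overlap but its difference of -0.53 ± 0.25 was not called (adjusted p = 0.381 by limma). Its neighbors at the left edge differed by as much (-0.51), and after position adjustment it stood at -0.06. The other (A_65_P16603), toward the right edge, read 10.02, 9.86 and 10.32 against 10.36, 10.11 and 9.82, a difference of 0.03 (95% interval -0.50 to 0.56). The probes of Bad differed from each other by -0.56 and those of Mcl1 by -0.70 as normalized, each with an exact permutation p of 0.1, the smallest that 3 arrays per line allow.

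Bcl2l11, which encodes BIM, a BH3-only protein that binds all anti-apoptotic members, read 8.47, 8.65 and 8.48 in 1G11-mock and 8.72, 8.72 and 8.07 in 1G11-SOD3 cells on the BH3 probe printed above. The lines overlapped, at -0.03 (95% interval -0.57 to 0.51), and after position adjustment the difference was 0.41 (adjusted p = 0.441 by limma). The second Bcl2l11 probe (A_52_P348214, designed on transcript variant 4) was well above background on no array, and its values of 7.29 to 7.65 allow no fold.

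Bbc3, which encodes PUMA, a p53 target that binds all anti-apoptotic members, is the member in the middle of the array. It read 12.48, 11.97 and 9.13 in 1G11-mock and 12.31, 12.05 and 12.33 in 1G11-SOD3 cells. 1G11-mock replicates 1 and 2 lay among the 1G11-SOD3 values, and replicate 3, the array on which the middle reads lowest, lay far below. The difference of 1.04 ± 0.66 (SE, adjusted p = 0.528 by limma) had the largest error of the 14 probes, and the spots around it differed by 1.31. Without 1G11-mock replicate 3 the difference was 0.01, and after position adjustment it was -0.20 (95% interval -1.13 to 0.73, adjusted p = 0.822). These arrays give no direction for Bbc3.

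**Figure D3:**
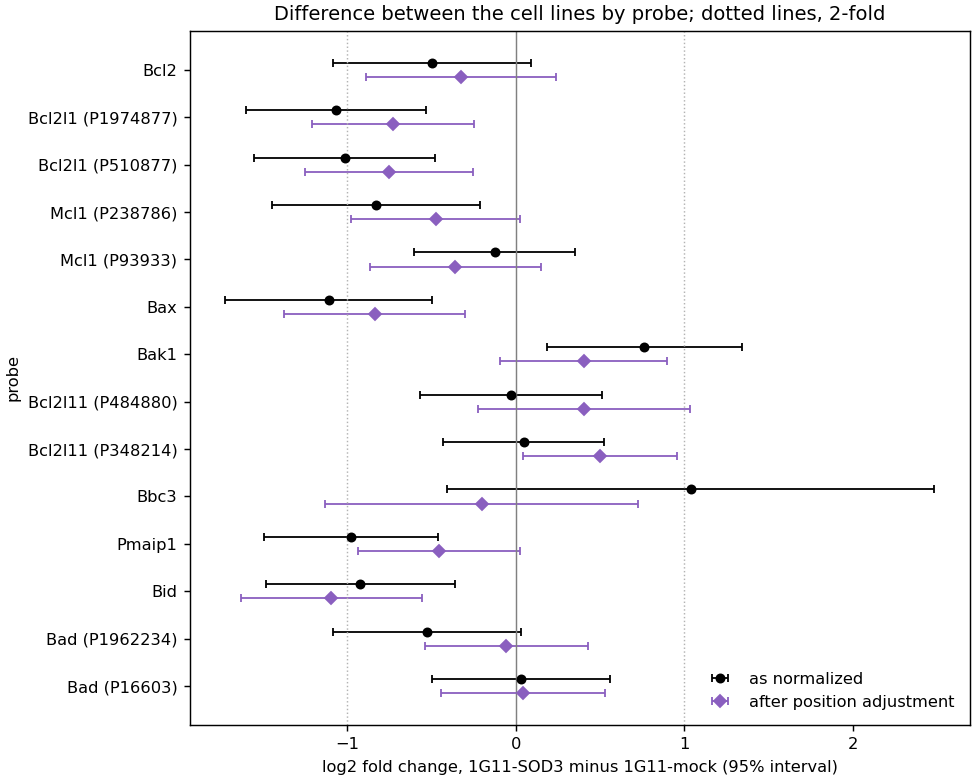
Log2 fold change (1G11-SOD3 minus 1G11-mock) of the 14 BCL2 family probes with 95% intervals from limma, as normalized (black circles) and after position adjustment (purple diamonds), with dotted lines at 2-fold. Both Bcl2l1 probes and Bax stay below 0 after adjustment with intervals that do not reach it, Bid moves further down to -1.09, and Bbc3 changes sign from 1.04 to -0.20.

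The genes around the family were counted on 5 lists, of which 60 of 62 genes were measured. By the brightest probe, 4 genes were called higher and 1 lower, where 2.91% and 1.72% of all genes were called higher and lower (by any probe of a gene, 5 and 1). All 4 higher genes lie in the middle of the array, which holds the brightest probe of 9 of the 60, and where 11.2% of probes were called higher against 0.644% elsewhere. After position adjustment 2 genes were called higher and none lower by limma (2 lower at an unadjusted p under 0.05), where 1.76% and 2.59% of all genes were called. The median difference of the 60 genes was -0.04 against -0.03 over all genes.

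The 12 measured genes of the wider BCL2 family held no call by limma (median -0.01, 1 gene at an unadjusted p under 0.05), and 6 of them were well above background on no array. Their most positive difference was that of Bmf, a BH3-only gene, which read 10.74, 10.34 and 9.59 in 1G11-mock and 11.20, 10.97 and 11.31 in 1G11-SOD3 cells (0.94 ± 0.29, adjusted p = 0.14 by limma, and 0.33 after position adjustment). The most negative was that of Bcl2a1c, whose values of 5.74 to 7.74 were well above background on no array and allow no fold. Bcl2l2, the anti-apoptotic BCL-W gene, stood at 0.15 ± 0.24.

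Downstream of the pore, 1 of 13 apoptosome and caspase genes was called, Casp6, an executioner caspase gene in the middle of the array. It read 11.16, 11.26 and 10.59 against 12.20, 11.93 and 12.10 (1.07 ± 0.25, adjusted p = 0.0404 by limma) and 0.46 after position adjustment, with no call. Leaving out any 1 array also lost this call (0.86 to 1.20, adjusted p of 0.0579 to 0.154 by limma). Casp9 (-0.26, and -0.088 after position adjustment) and Apaf1 (-0.43, and 0.13) were not called. Of 9 outer membrane partners, 8 read lower as normalized and none of these was called, and position adjustment took the list's median from -0.40 to -0.015. Vdac3, a porin gene in the middle, was called higher (13.19, 12.64 and 9.82 against 15.05, 14.87 and 15.14, a difference of 3.13) and stood at 1.27 (adjusted p = 0.106) after position adjustment. Its call was also lost without 1G11-mock replicate 2 or any 1 of the 1G11-SOD3 replicates (3.07 to 3.51, adjusted p of 0.0567 to 0.120 by limma). Vdac2, whose protein holds BAK1 at the membrane, stood at -0.99 ± 0.44 (adjusted p = 0.325), and at -0.42 after position adjustment, with 1G11-SOD3 replicate 1 apart from the others (13.44 against 15.04 and 15.48).

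Of 13 transcription factors that act on BCL2 family genes, 3 were called. Ddit3, which encodes the stress factor CHOP, known to raise Bcl2l11 and to lower Bcl2, read 11.83, 12.41 and 12.23 in 1G11-mock and 11.04, 11.02 and 10.55 in 1G11-SOD3 cells. It was lower by 1.28 (a difference of -1.28 ± 0.25, adjusted p = 0.0188 by limma) and lies outside the middle. The call was lost without 1G11-mock replicate 2 or 3 or 1G11-SOD3 replicate 1 or 3 (-1.37 to -1.12, adjusted p of 0.0501 to 0.0872 by limma). After position adjustment its difference was -0.999, just short of 2-fold (adjusted p = 0.0487). Jun and E2f1, both in the middle, were higher by 4.31 and 2.64, and after position adjustment by 2.38 and 1.23, still called (adjusted p = 0.0128 and 0.0264 by limma). Jun read 10.53, 8.22 and 7.61 in 1G11-mock and 13.64, 12.73 and 12.92 in 1G11-SOD3 cells. It was well above background on 2 of the 3 1G11-mock arrays, so that the size of its difference is uncertain. Trp53, the p53 gene, stood at 0.35 (adjusted p = 0.684), Rela at -0.52 and Nfkb1 at -0.21, none called. None of the 13 kinases, ligases and binders of BCL2 family proteins was called by its brightest probe with limma (2 at an unadjusted p under 0.05), and they ran from -0.64 (Usp9x, a deubiquitinase of MCL1) to 0.57 (Dynll1, a binder of BIM).

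**Figure D4:**
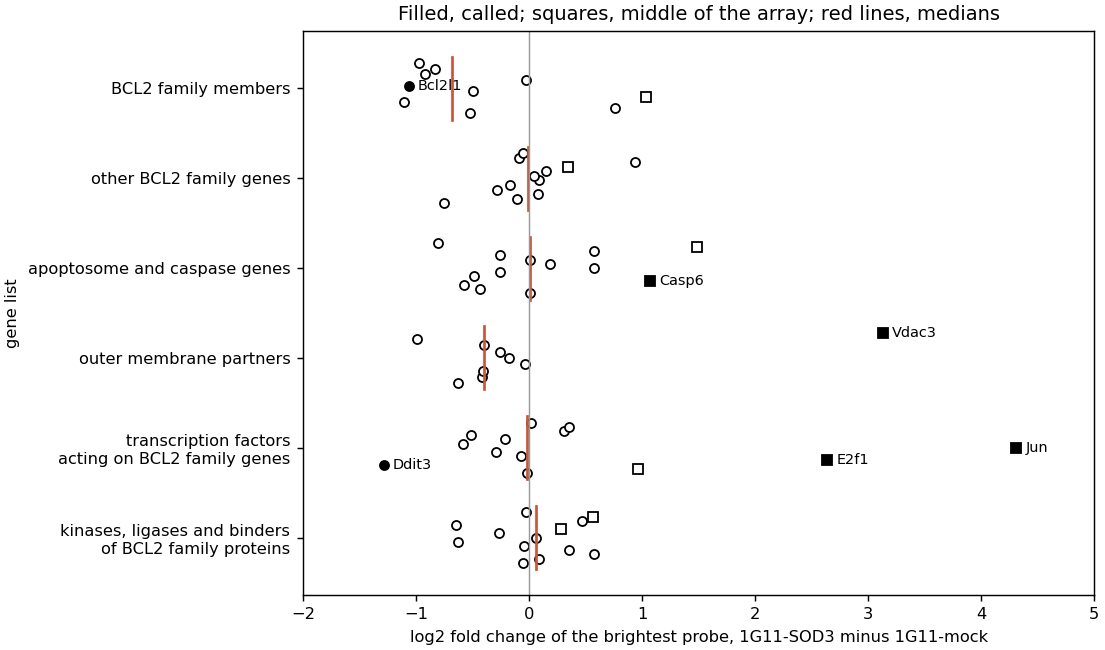
Log2 fold change of the brightest probe of each gene (1G11-SOD3 minus 1G11-mock) for the 10 BCL2 family members and 5 lists of genes around them, with filled symbols for called genes, squares for probes in the middle of the array and red lines for medians. The members' median (-0.68) lies below the medians of the 5 lists, and the 4 genes called higher are squares.

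Some markers of cell type also differed between the lines. Of 8 endothelial markers, 4 (Cdh5, Tek, Tie1 and Emcn) were well above background on no array, and Vwf was lower in 1G11-SOD3 (-1.65, adjusted p = 0.00342 by limma). The log2 of the list's summed intensity ran from 14.28 to 14.83 on the 1G11-mock arrays and from 13.61 to 13.86 on the 1G11-SOD3 arrays. By their means all 4 fibroblast and pericyte markers read higher and 2 were called, Col1a1 by 3.1 and Pdgfrb by 2.39. Pdgfrb was well above background on 1 of the 3 1G11-mock arrays, so that the size of its difference is uncertain. Dcn read 14.78, 14.48 and 14.04 in 1G11-mock and 13.51, 13.59 and 17.05 in 1G11-SOD3 cells. Its mean was thus higher through 1G11-SOD3 replicate 3 alone, and the other 1G11-SOD3 arrays lay below every 1G11-mock array. The sum of the 4 markers ran from 14.27 to 15.07 and from 14.97 to 17.36, or from 14.97 to 15.19 without 1G11-SOD3 replicate 3. No epithelial (5) or leukocyte (3) marker was called by limma (0 at an unadjusted p under 0.05 in both lists), with sums of 9.69 to 9.98 and 9.75 to 9.93 (epithelial) and 9.14 to 10 and 9.86 to 10.05 (leukocyte) and 3 and 2 genes well above background on no array. The epithelial markers ran from -0.24 (Epcam) to 0.31 (Cdh1) and the leukocyte markers from 0.25 (Ptprc) to 0.39 (Csf1r), Epcam and Ptprc being well above background on no array. The brightest Csf1r probe stood at -0.29 after position adjustment. As normalized, the other Csf1r probes stood at -0.16 (well above background on no array) and -0.24. Position adjustment turned both medians, from -0.20 to 0.28 (epithelial) and from 0.32 to -0.24 (leukocyte). The part of these markers in the members' differences was not tested, and a smaller share of cells with a transcript cannot be told apart from less of it per cell.

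Because the study concerns NF-κB, the promoters of the members were searched for the consensus κB motif on both strands, from 250 bases before to 50 after each start in RefSeq (GRCm38.p6). 9 of the 10 genes matched, with 15 starts, and 2 genes held the motif, against 9.55% of 27025 genes (8.46% of 32851 promoters). It lay before 1 of 3 starts of Bcl2l1, at bases 242 to 233 before the start, and before 1 of 3 starts of Bbc3, at bases 137 to 127, where 3 matches on both strands overlap. Both stretches are shown with the motif in capitals, in the direction of transcription, at chr2:152830925-152830967 (minus strand) and chr7:16309421-16309481 (plus strand). A match is a description of the sequence and not of binding.
Bcl2l1: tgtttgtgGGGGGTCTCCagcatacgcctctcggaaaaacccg
Bbc3: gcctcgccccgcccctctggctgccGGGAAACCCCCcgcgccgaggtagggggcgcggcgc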

How the data were processed

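Total RNA of 3 biological replicates per cell line was measured on 6 single-color Agilent SurePrint Mouse G3 arrays. The authors deposited scanner files of every array from Agilent's Feature Extraction (10.7.3.1), with the intensity of each spot and of its local background, not normalized, and 1 table of log2 values after normexp correction at an offset of 50 and quantile normalization, with limma named in the submitters' processing notes. Here the mean spot intensity was corrected with normexp on the local background median (offset of 50), taken to log2, freed of control spots, quantile normalized and averaged over copies of a probe, with outlier spots left out. Lines were compared by limma 3.58.1 in R 4.3.3 (empirical Bayes, Benjamini-Hochberg over 55681 probes). Python 3.11.15, pandas 2.3.3 and matplotlib 3.10.9 were used for tables and figures.

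The position adjustment subtracted from each spot the median deviation from the 6-array mean of the 100 nearest spots of other probes that were well above background on at least 3 arrays, before quantile normalization. Tested on simulated data with 200 changed probes among 55681, the procedure found 200. When the middle was made dim, 199 were found beside 1697 unchanged probes called higher. The position adjustment then recovered 200 and called no unchanged probe. The changed probes were drawn from those well above background. They were given larger changes than those of the members as normalized, and less noise than the real arrays. How well smaller changes or dim probes are recovered was not tested. Only the middle was made dim, so that shifts elsewhere on the array, such as those at the left edge, were not simulated. On the real arrays, 1005 of the 1462 probes called lower after position adjustment were dim probes in the middle.

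Text names every member and each of its probes, Sod3, called genes of the lists by brightest probe, and for lists without a call the smallest and largest difference. Casp9, Apaf1, Bcl2l2, Vdac2, Trp53, Rela and Nfkb1 were added after their values were seen. The members and lists were chosen with earlier results of these data known. p-values measure the spread between these arrays. No column of a sample's values was left out. Bcl2a1a and Bcl2a1b have no probe of their own name.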

Additional observations from a re-analysis of the deposited data

How the results depend on the processing

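With all arrays, the number of BCL2 family probes called changed from 1 under an offset of 16, cyclic loess and a variance trend (0 each). With dim probes left out, 3 were called (both Bcl2l1 probes and Bax). Leaving out 1 array gave 0 to 1. Scaling to the 75th percentile, of the processed signal or of the corrected intensity, called Pmaip1 in place of Bcl2l1 (the position adjustments called Bid), and moved the median of all probes to -0.52 and -0.33, while that of detected probes was 0.04 and -0.02. The number of called genes on the 5 lists was 5, and became 8 with the processed signal, 7 with scaling of the corrected intensity and 6 with the replicate block. It was 4 with no background correction, an offset of 16 or a variance trend. Position adjustment gave 2 (2 also with dim probes left out, an alternative chosen after seeing the data). A smooth surface gave 3, leaving out the middle of the array 1, and leaving out 1 array 2 to 4. Over all probes the calls went from 1629 to 11118 with the processed signal, 2598 with scaling, 842 without the middle and 775 to 1794 with 1 array left out. The cause was not tested.

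The replicate block raised the calls to 3 (both Bcl2l1 probes and Bax) and over all probes from 1629 to 2252. Same-numbered arrays deviated together with correlations of 0.17, 0.22 and 0.09, each array correlating best with its own number, which is also its column on the slide. The labels do not say that the numbers mark a shared experiment.

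The sign turned for 6 probes. Bad (A_65_P16603, 0.03) was -0.054 with median pixel intensity, -0.053 in the deposited table, and -0.10 to 0.17 with 1 array left out. Bad (A_55_P1962234, -0.53) was 0.15 with the processed signal and 0.045 with the smooth surface. Bcl2l11 (A_51_P484880) was 0.097 with the processed signal, 0.41 with position adjustment (also with dim probes left out), 0.42 with the smooth surface, and -0.14 to 0.19 with 1 array left out. The second Bcl2l11 probe (A_52_P348214), well above background on no array so that its sign carries no reading, was -0.24 with the processed signal, -0.40 with scaling, and -0.043 to 0.11 with 1 array left out. Mcl1 (A_52_P93933) was 0.045 with scaling, and Bbc3 (1.04) was -0.20 with position adjustment (also with dim probes left out) and -0.29 with the smooth surface. Signal over background limits Pmaip1 and the second Bcl2l11 probe.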
